A study of Mus musculus with 12 samples.

Results

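The genes of the proteasome were followed in the left ventricle of 12 mice. They were taken as the rows of the deposited table whose symbol is Psma, Psmb, Psmc, Psmd, Psme, Psmf or Psmg followed by a number, which gave 48 of 29564 genes. By their known place in the particle, 8 encode alpha subunits of the 20S core, 8 encode beta subunits, 3 encode the immunoproteasome subunits, 6 encode ATPases of the 19S cap, 11 encode other 19S subunits, 4 encode activators and 8 encode assembly factors or inhibitors. After the filter on low counts 47 were tested. The exception was Psmb11, the beta subunit of the thymus, which had 1 estimated count in library C2 and 0 in the other libraries. All 48 genes are annotated as protein-coding.

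The libraries held poly(A) RNA of wild-type C57BL6 mice, 1 per mouse and 4 per group. Control-Veh mice (libraries C1 to C4) had no heart failure and received vehicle. HFpEF-Veh mice (V1 to V4) modelled heart failure with preserved ejection fraction (HFpEF) through a high-fat diet with L-NAME, which blocks nitric oxide synthase, and received vehicle. HFpEF-TYA-018 mice (T1 to T4) had that same model and were given the HDAC6 inhibitor TYA-018 orally at 15 mg/kg (HDAC6 removes acetyl groups from tubulin and other proteins of the cytoplasm). The title of the series speaks of a single dose, whereas the treatment label speaks of daily doses for weeks, and the title was followed. Age, sex and sequencing batch are not given in the labels, and animal numbers ran together within each group, so effects of cage, date or order of handling and of group cannot be told apart.

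The proteasome degrades proteins that carry chains of ubiquitin. Its 20S core is a barrel of alpha and beta rings in which Psmb5, Psmb6 and Psmb7 hold the chymotrypsin-like, caspase-like and trypsin-like sites, and the 19S cap binds ubiquitin, unfolds the substrate with its ATPase ring and feeds it into the barrel. In immune cells and under interferon the catalytic subunits are replaced by Psmb8, Psmb9 and Psmb10, and the core can also be opened without the 19S cap by PA28 alpha and beta (Psme1 and Psme2), PA28 gamma (Psme3) or PA200 (Psme4). In heart muscle the ubiquitin-proteasome system removes damaged sarcomere proteins.

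Total estimated counts were 61.2 to 83.9 M per library, the highest being T1. Proteasome genes held 0.233% to 0.253% of the counts in C1 to C4, 0.196% to 0.219% in V1 to V4 and 0.239% to 0.289% in T1 to T4, so that HFpEF-Veh did not overlap either other group. Mitochondrial counts are part of the same total, so a higher mitochondrial share lowers the proteasome share. That mitochondrial share was 37.0% to 40.6%, 43.1% to 47.7% and 35.4% to 41.2%, in the same order of groups. The separation of HFpEF-Veh from Control-Veh thus depends on that total. In the means of log2 CPM at the end of this paragraph the 2 groups overlap. Values per gene below are CPM, counts scaled to library size with TMM factors, and differences are log2 fold changes of counts with their standard error (SE). The threshold for a call was an adjusted p below 0.05 in edgeR's quasi-likelihood test (Benjamini-Hochberg, 14333 tested genes). Among control libraries C1 stood lowest: the mean over the 47 genes of log2 CPM, set against the Control-Veh mean, was -0.14 in C1, -0.04 to 0.14 in C2 to C4, -0.16 to -0.03 in V1 to V4 and 0.04 to 0.12 in T1 to T4. Without Psmb1, which was very low in T1, it was 0.06 to 0.14 in T1 to T4.

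**Figure D1:**
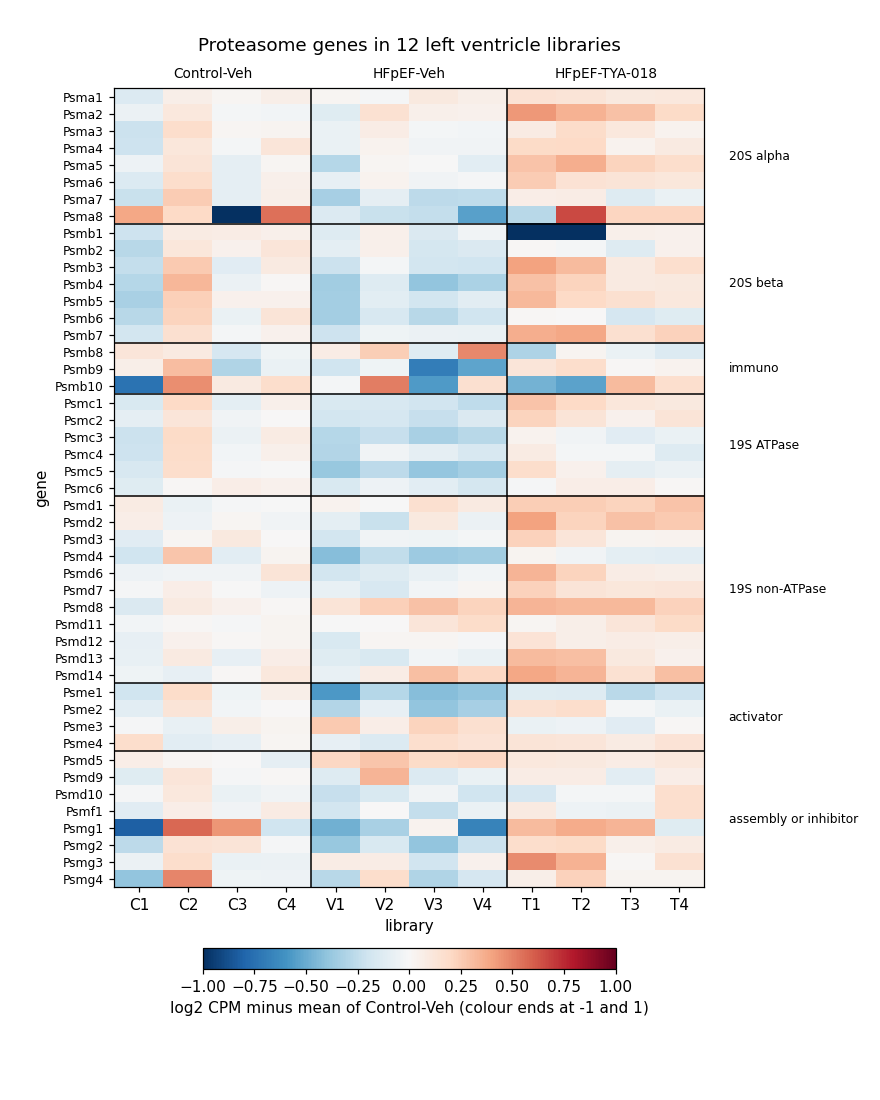
Each row is 1 of the 47 tested proteasome genes and each column 1 library, and the colour is log2 CPM minus the Control-Veh mean of that gene, from -1 (blue) to 1 (red). The HFpEF-TYA-018 columns are mostly pale red in the 20S and 19S blocks, HFpEF-Veh and C1 are mostly pale blue, and Psmb1 is dark blue in T1 and T2.

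The first comparison asked how the model changed proteasome genes. In HFpEF-Veh against Control-Veh, 3 proteasome genes were higher and 7 were lower of 47 tested, beside 10.9% higher and 10.3% lower over all tested genes. That is 6.38% and 14.9% of the tested members, so neither share stood far from the background. The genes that fell were 3 ATPases of the 19S cap (Psmc2, Psmc3 and Psmc5), its ubiquitin receptor Psmd4, both PA28 subunits Psme1 and Psme2, and the assembly chaperone Psmg2. Those that rose were the 19S subunit Psmd8, PA28 gamma (Psme3) and Psmd5, which holds ATPases apart before assembly. The median log2 fold change of the members was -0.10, beside -0.01 over all genes, and 34 of 47 members were below 0. With effective gene length as an offset that median was -0.06, with 29 below 0, and on rescaled log2(TPM + 1), with TPM set to the same sum over detected nuclear protein-coding genes in every library, it was -0.0085, with 24 below 0.

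In the ATPase ring all 6 members had negative values, and 3 passed the test. Psmc5 (chr11:106256154-106263120) gave 69.9, 88.2, 77.2 and 77.7 CPM in C1 to C4, 60.0, 65.2, 59.6 and 61.6 CPM in V1 to V4 and 87.9, 80.3, 73.3 and 75 CPM in T1 to T4. Every HFpEF-Veh library lay below every Control-Veh library (log2 fold change -0.35, SE 0.0778, adjusted p = 0.00963). Psmc3 (chr2:91054009-91066369), with 135, 179.5, 151 and 167 CPM in C1 to C4, 129, 134, 126 and 130.0 CPM in V1 to V4 and 161, 154, 145 and 150.3 CPM in T1 to T4, did not overlap between the first 2 groups either (log2 fold change -0.29, SE 0.0790, adjusted p = 0.0243). Psmc2 (chr5:21785283-21803787) fell less, from 60.5 ± 3.76 to 53.3 ± 1.35 CPM (SD, n = 4; log2 fold change -0.18, SE 0.0575, adjusted p = 0.0413). The largest difference that was not called was that of Psmc1, at -0.20 (adjusted p = 0.0848).

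The non-ATPase part of the cap did not move as a block. Psmd4 (chr3:95032694-95042614), which binds ubiquitin chains, gave 74.6, 104, 79.4 and 87.2 CPM in C1 to C4, 63.7, 72, 66.4 and 67.2 CPM in V1 to V4 and 87.2, 83.6, 79.9 and 79.6 CPM in T1 to T4, with no overlap between Control-Veh and HFpEF-Veh (log2 fold change -0.36, SE 0.0904, adjusted p = 0.016). Psmd8 (chr7:29174188-29180701), a subunit of the lid, went the other way and gave 44.5, 52.3, 50.7 and 49.4 CPM in C1 to C4, 53.8, 58, 60.2 and 57.3 CPM in V1 to V4 and 62.2, 61.6, 61.4 and 57.7 CPM in T1 to T4. Its HFpEF-Veh libraries lay above all control libraries (log2 fold change 0.22, SE 0.0595, adjusted p = 0.0219). The other 9 members were not called. The deubiquitinase Psmd14, with the largest difference among them, gave 19.9, 19.4, 20.7 and 22 CPM in C1 to C4, 19.4, 21.6, 25.2 and 23.7 CPM in V1 to V4 and 26.8, 26, 22.7 and 25.2 CPM in T1 to T4, with overlap in this comparison (0.13, adjusted p = 0.272). The median of the 11 genes was -0.06, and 0.13 with the length offset.

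None of the 15 tested constitutive 20S core genes was called in edgeR's fit of the model against control. Unadjusted p was under 0.05 for 3, all lower, and DESeq2 called 2, Psmb4 and Psmb6, both lower. All 7 tested beta genes were below 0, with a median of -0.16, but that median was 0.0046 with the same offset. Psmb4 had the largest difference of the beta class (89 ± 16.2 against 71.8 ± 5.97 CPM, log2 fold change -0.31, SE 0.113, adjusted p = 0.0697). In the alpha class it was Psma8, an alpha subunit of the testis, which was scarce, with 0.556, 0.485, 0.173 and 0.628 CPM in C1 to C4, 0.378, 0.354, 0.349 and 0.278 CPM in V1 to V4 and 0.340, 0.678, 0.490 and 0.491 CPM in T1 to T4 (log2 fold change -0.44, SE 0.374, adjusted p = 0.432).

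The activators split. Psme1 (chr14:55578123-55581529) gave 81.4, 107, 91.1 and 97.4 CPM in C1 to C4, 62.9, 76.9, 69.8 and 71.2 CPM in V1 to V4 and 86.1, 85.5, 77.6 and 81 CPM in T1 to T4, and fell in HFpEF-Veh with no overlap between groups (log2 fold change -0.42, SE 0.0850, adjusted p = 0.00543). Psme2 (chr14:55587441-55591113), its partner in the PA28 ring, gave 29.7, 34.9, 31.4 and 32 CPM in C1 to C4, 26.1, 30.2, 24.3 and 25.3 CPM in V1 to V4 and 35.6, 36, 31.5 and 30.6 CPM in T1 to T4. It fell as well, although V2 lay inside the control range (log2 fold change -0.27, SE 0.0810, adjusted p = 0.0321). Psme3 (chr11:101316213-101323537), which forms a ring of its own in the nucleus, gave 39.6, 37.8, 41.5 and 40.6 CPM in C1 to C4, 47.8, 41.8, 46.4 and 44.6 CPM in V1 to V4 and 38.1, 38.5, 36.8 and 40.1 CPM in T1 to T4 and rose (log2 fold change 0.18, SE 0.0540, adjusted p = 0.0344). Psme4, the single-chain activator PA200, gave 128, 105, 107 and 115 CPM in C1 to C4, 107, 103, 127 and 124 CPM in V1 to V4 and 124, 123, 119.6 and 125 CPM in T1 to T4 and was not called (log2 fold change 0.02, SE 0.0814, adjusted p = 0.869). Of the 31-base words in the Psme2 transcripts, 33.5% also occur in Psme2b, so part of its counts could belong to that gene.

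Among assembly factors and inhibitors, Psmd5 gave 10.3, 10.00, 9.89 and 9.3 CPM in C1 to C4, 11.4, 12, 11.3 and 11.4 CPM in V1 to V4 and 10.6, 10.6, 10.4 and 10.6 CPM in T1 to T4. Each HFpEF-Veh value exceeded each control value (log2 fold change 0.22, SE 0.0559, adjusted p = 0.0162). Psmg2 gave 13.3, 17.5, 17.4 and 15.8 CPM in C1 to C4, 12.2, 14.3, 12.1 and 13.7 CPM in V1 to V4 and 18, 18.2, 16.4 and 16.8 CPM in T1 to T4, and fell with V2 and V4 inside the control range (log2 fold change -0.29, SE 0.0931, adjusted p = 0.0434). Psmg1, the partner of Psmg2 in the chaperone that builds the alpha ring, varied widely within groups, with 4.69, 12.3, 11.2 and 7.21 CPM in C1 to C4, 5.91, 6.61, 8.48 and 5.21 CPM in V1 to V4 and 10.3, 10.7, 10.5 and 7.62 CPM in T1 to T4, and its difference of -0.43 was not called (adjusted p = 0.255).

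Several measures moved with the model beside these genes. Summed CPM of 7 cardiomyocyte markers was 25881 to 34505 in Control-Veh and 23850 to 25802 in HFpEF-Veh, with 5 of the 7 called lower and 1 higher. Sums were higher in HFpEF-Veh for 5 red cell genes (4785 to 14139, against 1553 to 2309), 5 endothelial genes (822 to 990.4, against 672 to 763), and 9 immune genes (134 to 179, against 93 to 123; 4 of the 9 called higher and 1 lower). Those of 5 fibroblast genes were 561 to 776, against 376 to 563. Called higher were 5 of 5 red cell, 3 of 5 endothelial and 3 of 5 fibroblast genes, beside 10.9% of all tested genes. All of these markers were detected, and only Nkg7 and S100a8 were at 0 in any library. The median effective length of proteasome genes, relative to their own mean over libraries, was 0.975 to 1.01 in Control-Veh and 1.02 to 1.05 in HFpEF-Veh. The part of these measures in the results was not tested, and in whole tissue fewer cells of a type and less RNA per cell cannot be told apart.

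The count for the model depended on single libraries. It was 17 genes (3 higher, 14 lower) without C1, and 3 without C4, 5 without C2, 5 without V1, 4 without V3 and 5 without V4. The count over all genes moved as well, from 3033 in the fit of all libraries to 3992 without C1 and 1986 without C4. It was 2123 without C2, 2522 without V1, 2055 without V3 and 2266 without V4. With effective length as an offset 4 members were called, 2 in each direction, beside 1445 genes over all. They were Psme1 and Psmc5, lower, and Psmd5 and Psmd8, higher. Psme1, Psmc5 and Psmd4 were called whichever of the 8 libraries was left out, but Psmd4 lost its call with the offset. On log2(TPM + 1) and log2(TPM + 0.1) no member was called, beside only 172 and 301 of the 14333 genes over all. The call of Psmd5 was lost without C4, and that of Psmd8 without C4 or V3. Those of Psmc3 and Psme3 were lost without C2, C4, V1, V3 or V4, and those of Psme2 and Psmg2 also without C3. Psmc2 kept its call only without C1.

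The second comparison asked what 1 dose of TYA-018 did to mice with the model. In HFpEF-TYA-018 against HFpEF-Veh, 17 of the 47 tested members were higher and 1 was lower, beside 8.93% higher and 10.4% lower over all tested genes. As shares of the members these are 36.2% and 2.13%. The 17 were core subunits (Psma2, Psma5, Psmb3, Psmb4, Psmb5 and Psmb7), 19S ATPases (Psmc1, Psmc2 and Psmc5), other 19S subunits (Psmd1, Psmd2, Psmd4, Psmd6, Psmd7 and Psmd13), the activator Psme2 and the chaperone Psmg2. The 1 that fell in counts was Psme3, which was above 0 on log2(TPM + 1) but below 0 on rescaled log2(TPM + 1). Fold changes were small: the median of the members was 0.21 on the log2 scale, beside 0.002 over all genes, and 42 of 47 were above 0.

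**Figure D2:**
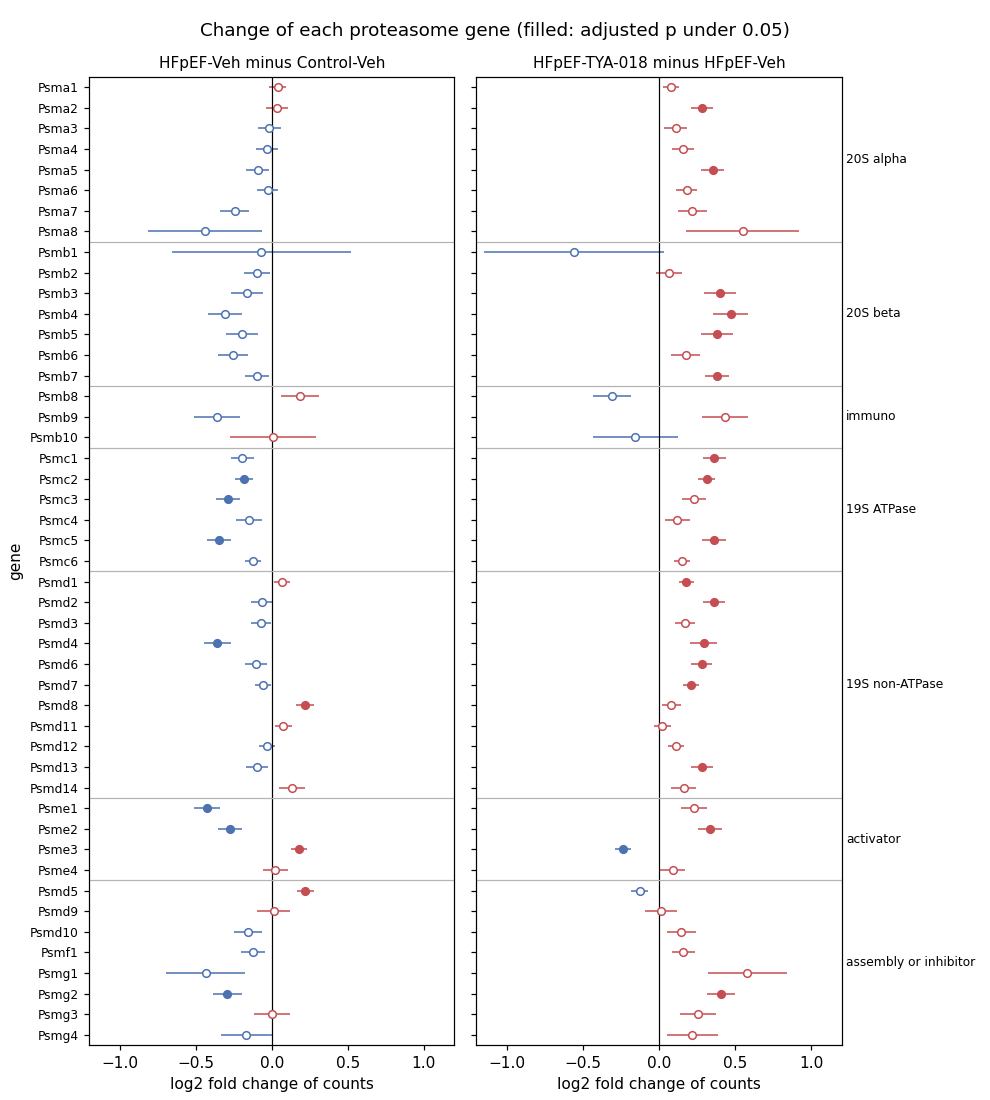
The log2 fold change of counts with its SE is drawn for each of the 47 tested genes, for HFpEF-Veh minus Control-Veh (left) and HFpEF-TYA-018 minus HFpEF-Veh (right), red above 0 and blue below, filled where the adjusted p was under 0.05. Filled points number 10 on the left, on both sides of 0, and 18 on the right, of which Psme3 alone is below 0. These are counts, and Psme3 is above 0 on log2(TPM + 1) but below 0 on rescaled log2(TPM + 1). The panels share the HFpEF-Veh libraries.

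In the 20S core, 6 of 15 tested genes rose after the dose. Psmb7 (chr2:38588036-38644087), with the trypsin-like site, gave 76.4, 96.8, 85.6 and 89.6 CPM in C1 to C4, 75.2, 84.1, 83.3 and 83 CPM in V1 to V4 and 111, 114, 97 and 102 CPM in T1 to T4. Every HFpEF-TYA-018 library lay above every HFpEF-Veh library (log2 fold change 0.38, SE 0.0788, adjusted p = 0.00749). Psmb5 (chr14:54614119-54618022), the chymotrypsin-like subunit and the target of bortezomib, gave 56.5, 83.7, 73 and 73.1 CPM in C1 to C4, 55.9, 66, 62.5 and 65.8 CPM in V1 to V4 and 88.9, 81.5, 79.4 and 76.2 CPM in T1 to T4. Again the dosed libraries did not overlap those of the model (log2 fold change 0.38, SE 0.104, adjusted p = 0.0249). The third catalytic gene, Psmb6 (chr11:70525367-70527858), gave 89, 126, 103 and 118 CPM in C1 to C4, 85.3, 96.8, 89.3 and 94 CPM in V1 to V4 and 109, 108, 96.3 and 99.4 CPM in T1 to T4, with overlapping groups, and was not called (log2 fold change 0.18, SE 0.0965, adjusted p = 0.223).

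Psmb4 (chr3:94884093-94886961), a structural beta subunit, had the largest called change of the core. It gave 72.2, 111, 84.4 and 88.5 CPM in C1 to C4, 69.2, 80.5, 66.9 and 70.8 CPM in V1 to V4 and 108, 103, 93.7 and 93.9 CPM in T1 to T4, so that every dosed library exceeded every HFpEF-Veh library (log2 fold change 0.47, SE 0.113, adjusted p = 0.0144). Psmb3, which also has no active site, gave 43.5, 61.5, 47.6 and 54.7 CPM in C1 to C4, 44.2, 50.8, 45.2 and 44.8 CPM in V1 to V4 and 67.9, 64.1, 54.7 and 57.8 CPM in T1 to T4. It rose without overlap (log2 fold change 0.40, SE 0.105, adjusted p = 0.0204). In the alpha ring, which forms the gate of the barrel, Psma5 (chr3:108256926-108279974) gave 27.6, 31.3, 26.9 and 28.9 CPM in C1 to C4, 23.5, 29, 28.5 and 26.5 CPM in V1 to V4 and 34.9, 36.8, 33.3 and 32.3 CPM in T1 to T4, with no overlap after the dose (log2 fold change 0.35, SE 0.0753, adjusted p = 0.00859). Psma2 (chr13:14613240-14674236) gave 18.5, 20.7, 19 and 18.8 CPM in C1 to C4, 17.7, 21.4, 19.9 and 19.8 CPM in V1 to V4 and 26, 24.5, 23.6 and 22 CPM in T1 to T4 and rose without overlap as well (log2 fold change 0.29, SE 0.0720, adjusted p = 0.018). The largest alpha difference that was not called was again that of the scarce Psma8 (0.55, adjusted p = 0.33).

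Sequence shared with other genes limits some of these values. Of the 31-base words of Psmb5, 71.7% also occur in other genes, 59.8% in the processed pseudogene Gm3375. For Psma5 the share was 58.7%, for Psmc1 32.2% and for Psmd2 31.6%, chiefly with processed pseudogenes, and reads from those loci could be counted with these genes or the reverse.

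All 17 members of the 19S cap had positive values after the dose, and 9 were called. With effective length as an offset, 15 were positive and 2 were called, Psmc2 and Psmc5. Psmc2, with 56.9, 65.7, 58.9 and 60.4 CPM in C1 to C4, 53.3, 53.8, 51.5 and 54.6 CPM in V1 to V4 and 70.6, 66.1, 62.1 and 66.2 CPM in T1 to T4, showed dosed libraries wholly above those of the model (log2 fold change 0.31, SE 0.0575, adjusted p = 0.00435). Psmc1 (chr12:100110154-100123405) gave 51.3, 65.2, 53.2 and 59.1 CPM in C1 to C4, 51.4, 51, 49.9 and 47.7 CPM in V1 to V4 and 69.4, 65.4, 61.5 and 61 CPM in T1 to T4, and Psmc5 returned to 79.1 ± 6.55 CPM. Neither overlapped HFpEF-Veh (log2 fold change 0.36, SE 0.0757, adjusted p = 0.00748 for Psmc1, and log2 fold change 0.36, SE 0.0778, adjusted p = 0.00876 for Psmc5). The largest ATPase difference not called was 0.23 for Psmc3 (adjusted p = 0.0574).

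Psmd2 (chr16:20651652-20663414), a large scaffold subunit of the base that docks ubiquitin shuttles, had the smallest p of the other 19S genes. It gave 96.4, 88.9, 93.6 and 90.0 CPM in C1 to C4, 86.3, 79, 98.6 and 88.4 CPM in V1 to V4 and 122, 108, 113 and 110.4 CPM in T1 to T4, and all dosed libraries lay above all others (log2 fold change 0.36, SE 0.0700, adjusted p = 0.00561). Psmd13, a lid subunit, gave 37.1, 41.5, 37 and 41 CPM in C1 to C4, 35.9, 35.1, 38.3 and 37.4 CPM in V1 to V4 and 48.8, 48.2, 41.9 and 40.2 CPM in T1 to T4. T1 and T2 were its highest libraries, and no dosed library overlapped HFpEF-Veh (log2 fold change 0.29, SE 0.0721, adjusted p = 0.018). Psmd7, the partner of Psmd14 in the lid, gave 52.6, 55.4, 52.7 and 51.3 CPM in C1 to C4, 50.4, 47.3, 52 and 53.8 CPM in V1 to V4 and 62.3, 58.1, 57.2 and 57.8 CPM in T1 to T4, also without overlap (log2 fold change 0.21, SE 0.0532, adjusted p = 0.0182). Its call was lost on the TPM scales and with effective length as an offset, where its value was 0.061 (adjusted p = 0.872). On rescaled log2(TPM + 1) the value of the scaffold Psmd1 after the dose was 0.0078 (adjusted p = 0.981). The largest difference short of a call was 0.17 for the lid subunit Psmd3 (adjusted p = 0.0816), which gave 76, 84.2, 83.7 and 85 CPM in V1 to V4 and 101, 93.9, 87.8 and 88.5 CPM in T1 to T4.

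The activators again divided. Psme2 rose with no overlap (log2 fold change 0.34, SE 0.0809, adjusted p = 0.0146), as its values given above show. Psme1 did not overlap HFpEF-Veh either, but its difference of 0.23 was not called (adjusted p = 0.0734). Psme3 fell below every HFpEF-Veh library in counts (log2 fold change -0.24, SE 0.0540, adjusted p = 0.0118), whereas on log2(TPM + 1) its value was above 0 (0.32, adjusted p = 0.708). On that scale the median of all genes was 0.17. On rescaled log2(TPM + 1) and with effective length as an offset Psme3 was below 0 but not called. Its deposited effective length ranged from 860 to 6137 bases between libraries, 7.14-fold and the widest among members, so its TPM is not a steady scale. For Psme4 the difference was 0.09 (adjusted p = 0.467).

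Of the 8 assembly factors and inhibitors, Psmg2 alone was called, with dosed libraries above all HFpEF-Veh libraries (log2 fold change 0.41, SE 0.0931, adjusted p = 0.0112). Psmg1 had the larger value but also the larger spread (log2 fold change 0.58, SE 0.260, adjusted p = 0.141). Psmd5, raised in the model, stood at -0.13 after the dose (adjusted p = 0.135).

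Mean levels of the same outside measures lay closer to Control-Veh after the dose than in the model. Summed CPM of cardiomyocyte markers was 26444 to 28943 in HFpEF-TYA-018, with 1 of 7 called higher, and summed red cell genes were at most 3572, with 5 of 5 called lower. Immune markers summed to 106 to 129.6, endothelial markers to 640.2 to 794 and fibroblast markers to 349 to 530.1. Called lower were 1 of 9 immune, 3 of 5 endothelial and 4 of 5 fibroblast markers, beside 10.4% of all tested genes. The relative effective length of proteasome genes was 0.933 to 0.997. With that length as an offset 7 members were called, all higher, beside 1217 genes over all. They were Psma2, Psma5, Psmb2, Psmb4, Psmb7, Psmc2 and Psmc5, and the median over members was 0.18. The part of these measures was not tested. DESeq2 called 20 members higher and 1 lower, beside 3411 genes over all. Without T1 the edgeR count was 10 (9 higher, 1 lower), and without T2 it was 12. Over all genes edgeR called 1485 without T1 and 1631 without T2, beside 2767 in the fit of all libraries. The call was lost without T1 for Psma2, Psmd7 and Psme2, without T1 or T2 for Psmd13, and without T1, T2 or V1 for Psmd6. It was lost without T1, T2, V1 or V3 for Psmb5, and for Psmb3 also without V4. Psmd4 and Psmd1 kept it in 2 of 8 such fits, and the other 9 members in all 8. With T1 and T2 both left out edgeR called no member, while 18 had an unadjusted p under 0.05, 366 genes were called over all and the median of the members was 0.17.

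The third comparison set the dosed mice beside Control-Veh. Here 4 members were higher and 0 were lower in edgeR, beside 3.12% higher and 2.74% lower over all tested genes. Unadjusted p was under 0.05 for 15 higher and 1 lower, and DESeq2 called 7 higher and 0 lower, beside 1513 genes over all. The 4 were Psma2 (log2 fold change 0.32, SE 0.0720, adjusted p = 0.0265), Psmd1 (log2 fold change 0.25, SE 0.0516, adjusted p = 0.0188), Psmd2 (log2 fold change 0.30, SE 0.0699, adjusted p = 0.0312) and Psmd8 (log2 fold change 0.30, SE 0.0595, adjusted p = 0.0156). Psmd1 (chr1:86064387-86139151), the other large scaffold of the 19S base, gave 62.4, 56.2, 58.5 and 58.6 CPM in C1 to C4, 60.4, 58.7, 65.6 and 62.5 CPM in V1 to V4 and 69.9, 70.0, 68.5 and 71.9 CPM in T1 to T4. None of these 4 genes overlapped between HFpEF-TYA-018 and Control-Veh. Psmd2 held its call in 1 of 8 fits that each left out 1 library of these groups, Psma2 in 3, Psmd1 in 6 and Psmd8 in all 8.

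Differences short of a call in that comparison were 0.30 for Psmd14 (adjusted p = 0.0567) and 0.26 for Psma5 (adjusted p = 0.0625). For the catalytic Psmb7 it was 0.28 without overlap (adjusted p = 0.0563), and DESeq2 called it (adjusted p = 0.0103). Others were 0.17 for Psmc1 (adjusted p = 0.21), 0.26 for the chaperone Psmg3 (adjusted p = 0.229; 3.88, 4.57, 3.85 and 3.88 CPM in C1 to C4 and 5.61, 5.14, 4.07 and 4.48 CPM in T1 to T4) and -0.63 for Psmb1 (adjusted p = 0.584). Over the members the median was 0.10, beside -0.02 over all genes. With effective length as an offset no member was called, beside 203 genes over all, and 8 members had an unadjusted p under 0.05. Both comparisons of dosed mice use the same 4 libraries T1 to T4.

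The 3 immunoproteasome genes were scarce and were not called by edgeR in any comparison of all 12 libraries. Psmb8 (chr17:34197721-34201454), the counterpart of Psmb5, gave 9.39, 9.18, 7.65 and 8.36 CPM in C1 to C4, 9.09, 10.2, 7.9 and 12.1 CPM in V1 to V4 and 6.97, 8.78, 8.21 and 7.83 CPM in T1 to T4, with overlap between all groups. Psmb9 (chr17:34181987-34187764), the counterpart of Psmb6, gave 7.18, 8.51, 5.58 and 6.57 CPM in C1 to C4, 6, 6.69, 4.24 and 4.77 CPM in V1 to V4 and 7.5, 7.79, 6.95 and 7.04 CPM in T1 to T4, and its dosed libraries lay above those of the model. Psmb10 (chr8:105935735-105938444), the counterpart of Psmb7, gave 9.1, 21, 16.2 and 17.1 CPM in C1 to C4, 15, 21.6, 10.2 and 16.9 CPM in V1 to V4 and 10.9, 10.5, 18.9 and 17 CPM in T1 to T4, a spread within groups that covered any difference between them.

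For the model against control the values were 0.18 ± 0.12 for Psmb8 (adjusted p = 0.313), -0.36 ± 0.15 for Psmb9 (adjusted p = 0.112) and 0.01 ± 0.28 for Psmb10 (adjusted p = 0.986), as log2 fold change ± SE. After the dose they were -0.31 ± 0.12 (adjusted p = 0.106), 0.43 ± 0.15 (adjusted p = 0.0659) and -0.16 ± 0.28 (adjusted p = 0.74). Unadjusted p was under 0.05 for Psmb9 in both and for Psmb8 after the dose, and none against control after the dose. DESeq2 called Psmb9 after the dose (adjusted p = 0.0347) and no other. EdgeR called Psmb8 lower after the dose without V3 (-0.40, adjusted p = 0.0456) and Psmb9 higher without V2 (0.55, adjusted p = 0.0345), and limma called Psmb9 on log2(TPM + 0.1) (0.73, adjusted p = 0.0473). On log2(TPM + 1) the values after the dose were above 0 for Psmb8 (0.057, adjusted p = 0.741) and Psmb10 (0.32, adjusted p = 0.2) too. The sign of both thus turned on that scale, where the median of all genes was itself 0.17, above the value of Psmb8. On rescaled log2(TPM + 1) 2 immunoproteasome genes were above 0 and 1 below, with a median of 0.0046.

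**Figure D3:**
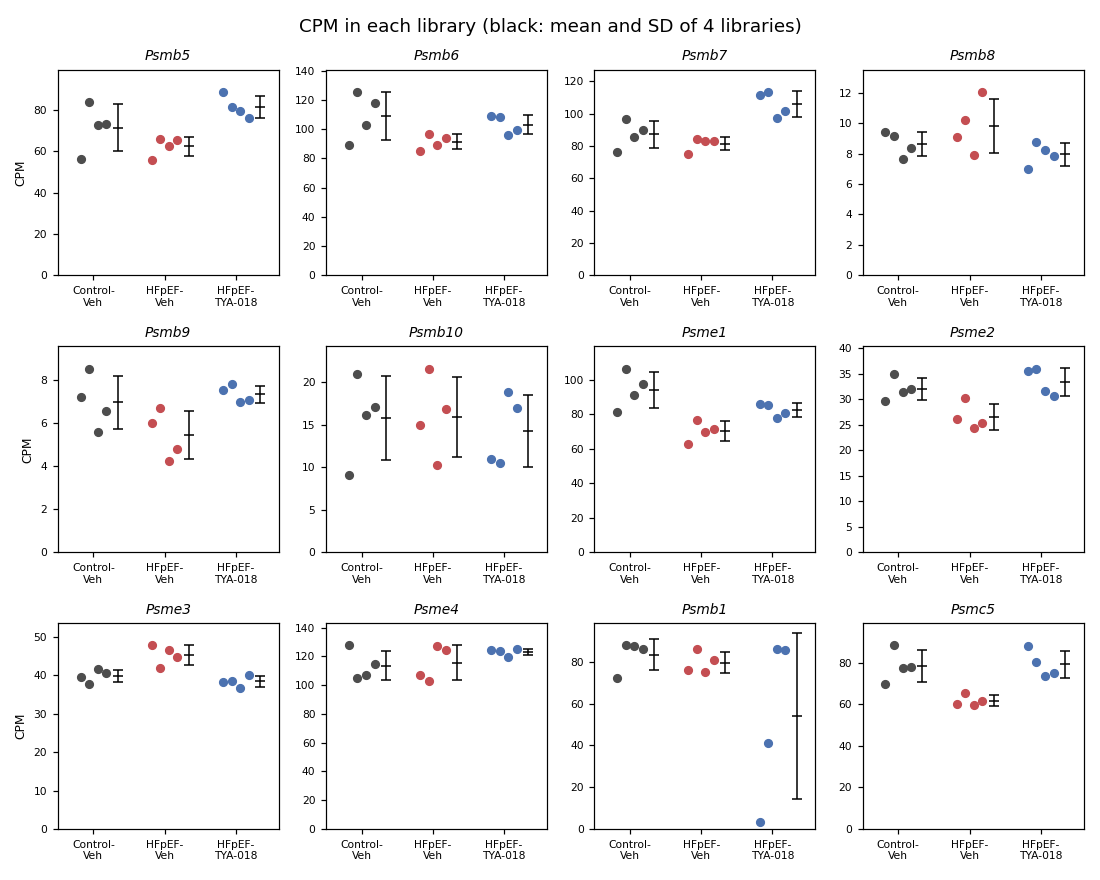
CPM of 12 proteasome genes in each library, with the 4 libraries of a group as points and their mean and SD in black, on axes that start at 0. Psmb5, Psmb7 and Psmc5 lie higher in every HFpEF-TYA-018 than in every HFpEF-Veh library, Psme3 lies lower (in counts, not in TPM), the points of Psmb8 and Psmb10 overlap, and Psmb1 is low in T1 and T2.

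Levels were set beside each other per length with TPM. The ratio of Psmb8 to Psmb5 TPM was 0.156, 0.0988, 0.0937 and 0.109 in C1 to C4, 0.158, 0.148, 0.104 and 0.152 in V1 to V4 and 0.0784, 0.102, 0.0983 and 0.0944 in T1 to T4. By group it averaged 0.114 ± 0.0286, 0.140 ± 0.0245 and 0.0933 ± 0.0104 (SD, n = 4; control, model, dosed), and each dosed library lay below each HFpEF-Veh library, with V3 the nearest. The ratio of Psmb9 to Psmb6 TPM was 0.0526 ± 0.00901, 0.0451 ± 0.00444 and 0.0571 ± 0.00660 in the same order, with overlap. For Psmb10 to Psmb7 it was 0.229 ± 0.0599, 0.221 ± 0.0825 and 0.156 ± 0.0576, again with overlap, and the order of control and model was reversed in CPM (0.179 ± 0.0419 and 0.196 ± 0.0553). No test was made on the ratios. The deposited effective length of Psmb10 averaged 2278 bases, 1.74 times its longest annotated transcript, and a length that is too long lowers its TPM. Psmb10 was not alone, since 9 of the 47 tested members had a mean above their longest transcript. Among them were Psma2 (3.25 times), Psmd7 (3.14), Psma5 (1.59) and Psmc5 (1.25). Psma2, Psma5 and Psmc5 were also called after the dose with effective length as an offset. Results in TPM and with that offset carry this limit.

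**Figure D4:**
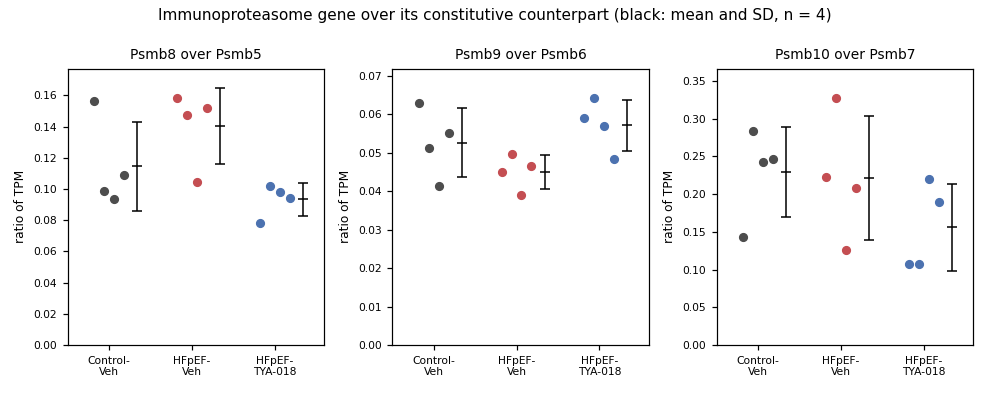
Ratio of the TPM of each immunoproteasome gene to that of the constitutive subunit it replaces, per library, with mean and SD in black and axes from 0. The highest ratio is 0.327, that of Psmb9 to Psmb6 is at most 0.0641, and the groups overlap except for Psmb8 to Psmb5 between HFpEF-TYA-018 and HFpEF-Veh.

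Psmb1 (chr17:15475021-15499751), a structural beta subunit, departed from the rest in 2 dosed libraries. It gave 72.2, 87.8, 87.6 and 86.1 CPM in C1 to C4, 76.1, 86, 75.2 and 81 CPM in V1 to V4 and 3.59, 41.3, 86.1 and 85.6 CPM in T1 to T4, so T1 and T2 were low while T3 and T4 lay within the range of the other groups. The estimated counts behind T1 and T2 were 338 and 2679, against 5973 and 5749.8 in T3 and T4. No comparison was called (log2 fold change -0.56, SE 0.589, adjusted p = 0.545 against HFpEF-Veh). T1 also had a TPM of the mitochondrial gene mt-Atp8 of 53163, with 181986 to 255474 in the other 11 libraries. The cause was not tested.

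Genes that act beside the proteasome were counted from lists. Of 12 muscle ubiquitin ligases, which mark sarcomere and other proteins for destruction, 2 (16.7%) were lower in the model, beside 10.3% of all tested genes, and 5 (41.7%) were higher after the dose, beside 8.93%. Against control after the dose 3 (25%) were higher, Asb2, Fbxo40 and Trim63, beside 3.12%. In the 8 fits that each left out 1 library of these groups, that call of Trim63 held in 0 and those of Asb2 and Fbxo40 in all 8. All 3 calls were lost with effective length as an offset, on log2(TPM + 1) and on log2(TPM + 0.1). Fbxo32 (atrogin-1) gave 80.5, 73.6, 71.5 and 73.1 CPM in C1 to C4, 45, 44.7, 50.4 and 58.7 CPM in V1 to V4 and 83.5, 65.2, 85.8 and 84 CPM in T1 to T4, and HFpEF-Veh lay below both other groups (log2 fold change -0.59, SE 0.103, adjusted p = 0.00273 in the model, and log2 fold change 0.68, SE 0.103, adjusted p = 0.00189 after the dose). Trim63 (MuRF1) went from 63 ± 11.2 to 94.5 ± 8.86 CPM after the dose (log2 fold change 0.59, SE 0.111, adjusted p = 0.00508), Asb2 from 308 ± 29.5 to 429.8 ± 29.7 CPM (log2 fold change 0.48, SE 0.0890, adjusted p = 0.00451) and the co-chaperone ligase Stub1 from 17.2 ± 2.59 to 25 ± 3.49 CPM (log2 fold change 0.54, SE 0.125, adjusted p = 0.0128). The calls of Trim63 and Stub1 after the dose were lost with effective length as an offset, on rescaled log2(TPM + 1) and with T1 and T2 left out, that of Trim63 also on log2(TPM + 1) and log2(TPM + 0.1), with values of 0.36 or more for Trim63 and 0.38 or more for Stub1 in all alternatives. Of the 12 shuttle and extraction factors, 4 (33.3%) were lower in the model and 5 (41.7%) higher after the dose, beside the same 10.3% and 8.93%. They include Sqstm1 (p62), which hands ubiquitinated cargo to autophagy (log2 fold change 0.45, SE 0.0715, adjusted p = 0.00246), Vcp, the ATPase that pulls clients from complexes and membranes (log2 fold change 0.40, SE 0.0888, adjusted p = 0.00988), and Bag6 (log2 fold change 0.21, SE 0.0509, adjusted p = 0.0155), although Bag6 was at -0.12 with effective length as an offset. Hdac6, which encodes the target of TYA-018 and binds ubiquitin, was lower in the model (log2 fold change -0.36, SE 0.0854, adjusted p = 0.0117). That call held in all 8 fits without 1 library. It was lost with effective length as an offset and on log2(TPM + 1), log2(TPM + 0.1) and rescaled log2(TPM + 1). Values in the alternatives were -0.40 to -0.15. In dosed mice Hdac6 was called higher with overlapping groups (log2 fold change 0.26, SE 0.0853, adjusted p = 0.0486). This second call held in 2 of 8 fits without 1 library and in 2 of 10 alternatives.

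Fewer calls came from the other lists. Of 7 further parts of the complex only the ubiquitin receptor Adrm1 was called, with a higher level in dosed mice (log2 fold change 0.21, SE 0.0675, adjusted p = 0.0488), and at -0.078 with effective length as an offset. Of 6 ubiquitin and E1 genes none was called by edgeR or DESeq2 in any comparison, and none had an unadjusted p under 0.05. Of 11 tested genes of antigen display on MHC class I, which uses peptides from the proteasome, B2m alone was called, lower after the dose (log2 fold change -0.56, SE 0.141, adjusted p = 0.0183). These lists were drawn up with the data already known. In fits that each left out 1 of the 8 libraries compared, the call of Adrm1 held in 1 and that of B2m in 7.

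Of 10 tested genes that control proteasome transcription, 3 (30%) were higher in the model, beside 10.9% of all tested genes, and 1 (10%) was lower after the dose, beside 10.4%. Nfe2l1 (Nrf1), the factor that restores proteasome genes when the particle is inhibited, gave 269.5, 224, 253 and 225 CPM in C1 to C4, 304, 266, 344 and 309.6 CPM in V1 to V4 and 329, 318, 328 and 332 CPM in T1 to T4. It was higher in the model, where V2 lay within the control range (log2 fold change 0.33, SE 0.0836, adjusted p = 0.0156), and higher in dosed than in control mice without overlap (log2 fold change 0.43, SE 0.0837, adjusted p = 0.0155), but 0.09 between the dosed and the model group (adjusted p = 0.462). Its partner gene Mafk was higher in the model (log2 fold change 0.30, SE 0.0630, adjusted p = 0.00633), and Maf was lower after the dose in counts but not on log2(TPM + 1) (log2 fold change -0.63, SE 0.184, adjusted p = 0.0328 in counts, and 0.0098 in TPM). Without 1 library, the call of Maf held in 4 of 8 fits. The calls of Nfe2l1 in the model and against control were each lost without C4 and with effective length as an offset. They were also lost on log2(TPM + 1), log2(TPM + 0.1) and rescaled log2(TPM + 1), as was the call of Mafk.

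Promoters were read for the core of the antioxidant response element, TGACNNNGC, to which Nfe2l1 binds with a Maf partner, and for the CCAAT box, on both strands of the 250 bases before each RefSeq gene start (GRCm38.p6). Of the 48 genes 40 had a promoter entry, and 5 of them (12.5%) held TGACNNNGC, beside 11.5% of 27025 genes. CCAAT was found in 14 (35.0%), beside 37.5% of all genes. Among the 14 genes with an entry that rose after the dose, 1 held the first motif, Psmb5, and 5 held CCAAT. The 5 matches to TGACNNNGC are shown 5′ to 3′ in the direction of the gene, with the match in capitals and up to 20 bases on either side, cut at the end of the searched window, so that the letters found in each gene can be compared. In Psmc6 and Psmd12 the match is on the opposite strand.
Psmb5, chr14:54618014-54618062, - strand of the gene: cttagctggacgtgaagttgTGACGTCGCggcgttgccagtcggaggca
Psmb6, chr11:70525328-70525356, + strand of the gene: cagaggcggactaaagagagTGACGGAGC
Psmc6, chr14:45329577-45329625, + strand of the gene: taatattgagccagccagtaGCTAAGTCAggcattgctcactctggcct
Psmd12, chr11:107479278-107479309, + strand of the gene: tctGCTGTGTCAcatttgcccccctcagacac
Psmd9, chr5:123228139-123228187, + strand of the gene: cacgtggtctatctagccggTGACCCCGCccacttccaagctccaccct
The match began 47 bases before the start in Psmb5, 9 in Psmb6, 31 in Psmd9, 227 in Psmc6 and 247 in Psmd12. Of these 5 genes Psmb5 was called after the dose, and Psmb6, Psmc6, Psmd12 and Psmd9 were not, with log2 fold changes of 0.18, 0.15, 0.11 and 0.02. A match describes letters only, and binding was not measured.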

How the data were processed

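Left ventricle RNA of 12 mice was measured, 4 per group, grouped by the labels. The authors ran fastp, salmon 1.6.0 and tximport on GENCODE mouse transcripts. They deposited an estimated count per gene without normalisation, a TPM value per gene, and, as another measure, effective gene length in bases. The labels name the build hg38 for these mouse samples, and the published methods name GRCm38, which was used for coordinates (GENCODE M21). Labels and methods differ on read length and layout.

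Estimated counts were rounded and tested in edgeR 4.0.16 (R 4.3.3) with filterByExpr, TMM and 1 quasi-likelihood fit of 12 libraries, each a separate animal by its label. F tests were two-sided, and SE was the log2 fold change divided by the square root of F. The fit was tested on simulated counts. Libraries of a group differed beyond counting noise (chi-square per degree of freedom at least 25.6). Depth was 61.2 to 83.9 M counts. Alternatives were DESeq2 1.42.0, limma 3.58.1 on log2(TPM + 1) and log2(TPM + 0.1), other size factors, an effective length offset, no filter and fits without 1 library.

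The members and gene lists were chosen with earlier results of these data known. Named were catalytic, immunoproteasome and activator genes, in every other class up to 3 called genes of smallest p and the largest uncalled change per comparison, and up to 4 called genes of each other list, besides Hdac6 as the target. Some genes of these lists are counted but not reported here by name. Columns of values left out numbered 0.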

Additional observations from a re-analysis of the deposited data

Results flagged for a closer look

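In each group of 4 libraries the most distant value of each tested gene was set against the other 3 with Dixon's ratio at its 95% critical value. Of 141 such sets of 4, 12 passed it, and chance alone gives about 1 in 20. In Control-Veh, Psmb1 was 72.2 CPM in C1 (others 86.1 to 87.8), Psmd6 was 35.9 CPM in C4 (31.5 to 31.9) and Psmg3 was 4.57 CPM in C2 (3.85 to 3.88). In HFpEF-Veh, V2 was high for Psmb3 (50.8 CPM, others 44.2 to 45.2), Psmd5 (12 CPM, others 11.3 to 11.4) and Psmd9 (11.7 CPM, others 8.43 to 8.87). V1 was low for Psmb7 (75.2 CPM, others 83 to 84.1) and Psmd3 (76 CPM, others 83.7 to 85), and V3 was low for Psmg3 (3.52 CPM, others 4.17 to 4.25). In HFpEF-TYA-018, Psmd9 was 8.61 CPM in T3 (others 9.72 to 9.79), Psmg1 was 7.62 CPM in T4 (10.3 to 10.7) and Psmg4 was 6.45 CPM in T2 (5.58 to 5.7). The low Psmb1 values of T1 and T2 did not pass it, since 2 libraries were low together.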

How the results depend on the processing

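No paired analysis was possible because each animal belonged to 1 group alone. The number of members called was 10 in the model against control, 18 after the dose against the model and 4 against control. Over all genes it was 3033, 2767 and 840. Leaving out 1 library gave 3 to 17, 10 to 22 and 1 to 6 members, beside 1986 to 3992, 1485 to 3251 and 308 to 809 over all genes. Against control after the dose the count of members was 2 without C3, T1 or T3 and 1 without C4 or T2. An effective length offset gave 4, 7 and 0, and limma on rescaled log2(TPM + 1) 5, 6 and 0. Limma on log2(TPM + 1) and on log2(TPM + 0.1) gave 0 in the model and 0 against control, with 25 and 27 after the dose. Fits that gave 0 members called few genes over all. On log2(TPM + 1) and log2(TPM + 0.1) these were 172 and 301 in the model, and 9 and 11 against control. Against control they were 203 with the length offset and 94 on rescaled log2(TPM + 1). After the dose, where members were called, log2(TPM + 1) and log2(TPM + 0.1) also called many more genes over all. DESeq2 gave 7 against control after the dose. T1 and T2 left out together, an alternative chosen after seeing the data, gave 7, 0 and 0, beside 2807, 366 and 110 over all genes.

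The medians over members of -0.10, 0.21 and 0.10 kept their sign in all of these fits. They were -0.23, 0.56 and 0.30 on log2(TPM + 1) and -0.26, 0.61 and 0.33 on log2(TPM + 0.1), scales on which the median of all genes was itself -0.07, 0.17 and 0.08, and -0.17, 0.34 and 0.17. Relative to that median they were -0.16, 0.40 and 0.22, and -0.09, 0.26 and 0.16. Rescaled TPM gave -0.0085 in the model. After the dose, called values changed sign for Psme3 (0.32 and 0.39) and Maf (0.0098 and 0.025) on log2(TPM + 1) and log2(TPM + 0.1), and for Adrm1 (-0.078 and -0.097) and Bag6 (-0.12 and -0.13) with the length offset and rescaled TPM. The causes were not tested. The log2 differences between groups in the ratios to constitutive subunits moved by less than 1 SD with CPM in place of TPM or without any 1 library, although that of Psmb10 between model and control changed sign in CPM (-0.087 to 0.115). With 4 libraries per group and differences of about 0.2 on the log2 scale, a gene that was not called may still differ.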
